A study of Macaca fascicularis with 16 samples.

Results

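The genes described here are 6 peptidases anchored at the outer face of the cell membrane: CPM, MME, XPNPEP2, ANPEP, DPP4 and ENPEP. They were found as all probe sets, the groups of short probes that together read 1 transcript, to which the array's annotation gives exactly 1 of these symbols. All 6 were found, of 14133 genes annotated in this way, on 13 of the 52865 probe sets of the array, and 11 of the 13 were bright enough to be tested. CPM, MME and XPNPEP2 were chosen by their large differences between treated and control animals in earlier results of these data, so their values against control are given below as a description with no test. ANPEP, DPP4 and ENPEP were added as relatives.

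Endometrium was taken from 16 postmenopausal female cynomolgus macaques, randomized to 4 arms of 4 animals, after 4 months of treatment. The combination arm received estradiol at 0.25 mg and the selective estrogen receptor modulator tamoxifen at 20 mg per 1800 kcal of diet. The tamoxifen arm and the estradiol arm received the same dose of 1 agent alone, and the control arm received placebo. RNA of each animal was read on 1 array made for the rhesus macaque, and the numbers 1 to 4 name the animals of an arm.

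Surface peptidases cut small peptides outside the cell, and so set how long a signal such as bradykinin, angiotensin, an enkephalin or a chemokine lasts near the cells that sense it. Each member cuts at its own place: a carboxypeptidase removes the last residue, an aminopeptidase the first, a dipeptidyl peptidase the first pair, and neprilysin cuts inside the chain. In the endometrium, MME is best known as CD10, a marker that pathologists use for endometrial stromal cells in women.

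Several properties of the arrays moved with treatment, and these are given before the members. The mean log2 level of 12 epithelial marker genes, relative to the mean over all arrays, was 0.27 ± 0.18 in the combination arm, 0.20 ± 0.60 in the tamoxifen arm, 0.31 ± 0.51 in the estradiol arm and -0.79 ± 0.04 in the control arm (SD, n = 4 each), and all 12 treated arrays lay above all 4 controls. Of these markers, 7 rose under the combination, 5 under tamoxifen and 7 under estradiol, and none of the markers was at 0 on any array. Over all 10705 genes, each by its brightest tested set, 10.6%, 8.59% and 16.5% rose in that order of arms. The score of 14 stromal fibroblast genes was -0.01 ± 0.15, 0.03 ± 0.21, 0.37 ± 0.11 and -0.39 ± 0.04 in the same order of arms, again with all 12 treated arrays (lowest -0.20) above all 4 controls (highest -0.35), and that of 7 T and NK cell genes was -0.57 ± 0.48, -0.28 ± 0.24, 0.27 ± 0.30 and 0.58 ± 0.38. The score of 15 endothelium genes was -0.01 ± 0.21, 0.02 ± 0.30, -0.20 ± 0.25 and 0.20 ± 0.08 in the same order. Of the stromal markers 5 rose and 1 fell under the combination, 5 and 0 under tamoxifen, and 9 and 0 under estradiol. For the endothelium markers these counts were 0 and 1, 0 and 1, and 1 and 8. Over all genes 9.09%, 7.64% and 13.2% fell. A score of 13 smooth muscle genes was -0.81 in tamoxifen animal 1 and -3.39 in estradiol animal 4, against 0.069 to 0.62 on the other 14 arrays. Differences of CPM, MME and XPNPEP2 from control are also given without these 2 arrays. The correlations below include them and were not computed without them. The log2 ratio of 3' to 5' beta-actin signal, a measure of RNA integrity, was 0.55 ± 0.08 under the combination, 0.52 ± 0.04 under tamoxifen, 0.57 ± 0.18 under estradiol and 0.92 ± 0.11 in controls (SD, n = 4 each), with the highest estradiol array (0.83) above the lowest control (0.76). Signal of defining genes of endometrium was present on every array, with EPCAM between 629 and 3063 and HOXA11 between 1646 and 3605. In such whole tissue, more cells of a type and more RNA per cell cannot be told apart.

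CPM, carboxypeptidase M, removes a C-terminal arginine or lysine from peptides such as bradykinin, and was high in every treated animal. On the brighter of its 2 probe sets (MmugDNA.29690.1.S1_at) the combination animals 1 to 4 gave signals of 2302, 2256, 1835 and 1556. The tamoxifen animals gave 3351, 571, 1188 and 1674, and the estradiol animals 1604, 1680.0, 939 and 2867. The control animals gave 92.0, 170.3, 177 and 148, so that the lowest treated array, tamoxifen animal 2, stood above the highest control. The mean on the log2(signal + 4.80) scale was 10.94 ± 0.27 for the combination, 10.45 ± 1.06 for tamoxifen, 10.69 ± 0.66 for estradiol and 7.20 ± 0.42 for control (SD, n = 4 each). As differences from the same 4 controls these were 3.74, 3.25 and 3.48 (SE 0.42 each), or 13.4-fold, 9.52-fold and 11.2-fold for the combination, tamoxifen and estradiol in that order.

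The dimmer CPM probe set (MmugDNA.25407.1.S1_at) separated the arms in the same way. It read 578 to 983 in the combination arm, 186 to 1542 in the tamoxifen arm, 378 to 1319 in the estradiol arm and 21.4 to 51.6 in the control arm. Its differences from control were 4.16, 3.62 and 3.93 on the log2 scale (SE 0.50 each) for the combination, tamoxifen and estradiol. Tamoxifen animal 1 was the highest and control animal 1 the lowest array on both CPM probe sets. Deviations from the arm means correlated between the 2 sets with r = 0.99 over 16 arrays, so they ordered the animals within an arm nearly alike.

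MME, neprilysin, cleaves enkephalins, substance P and natriuretic peptides, and its 3 probe sets disagreed. On the brightest the combination animals gave 894, 2006, 1785 and 1088. The tamoxifen animals gave 2399, 741, 1704 and 973, the estradiol animals 1204, 1985, 1188 and 2861, and the controls 256, 151, 318 and 91.2. Again all 12 treated arrays stood above all 4 controls, and the control arm had the widest spread among the arms, with a SD of 0.78 against 0.56, 0.76 and 0.61 for the combination, tamoxifen and estradiol. The log2 differences from control were 2.86, 2.80 and 3.17 (SE 0.43 each), or 7.28-fold, 6.98-fold and 8.99-fold for the combination, tamoxifen and estradiol.

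The second MME probe set (MmuSTS.3289.1.S1_at) showed no such separation, although it was nearly as bright. Its signals were 827, 725, 329 and 490.0 in the combination arm, 816, 446, 591 and 593 in the tamoxifen arm, 599, 656, 484 and 512 in the estradiol arm, and 643, 829, 606 and 363 in the control arm. The arms overlapped fully, and the log2 differences from control were -0.07, 0.03 and -0.07 (SE 0.28 each) for the combination, tamoxifen and estradiol. The third MME set, which fell below the brightness filter, read only 11.8 to 48.5 over all arrays, with log2 differences of 0.73, 0.14 and 0.58 (SE 0.30 each). Within arms the second set correlated with the first at r = 0.28 and the third with the first at r = 0.48 (16 arrays). The identifier of the first set ends in _s_at, which marks, on these arrays, probes that match more than 1 transcript, and which transcripts each set reads was not examined, so that the treated-to-control difference of MME holds for 1 of its 2 tested sets.

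XPNPEP2, the membrane-bound aminopeptidase P, removes an N-terminal residue that stands before proline, as in bradykinin, and ran the other way. Its probe set (MmugDNA.39875.1.S1_s_at, also of the shared type) gave 89.7, 146, 126 and 143 in the combination arm and 42.1, 349, 76.1 and 153 in the tamoxifen arm. It gave 73.8, 70.6, 203 and 23.5 in the estradiol arm, against 421, 451, 426 and 428 in the control arm. All 12 treated arrays lay below all 4 controls. The controls were nearly equal, with a log2 SD of 0.04, whereas the SD was 0.31 under the combination, 1.26 under tamoxifen and 1.18 under estradiol. The log2 differences from control were -1.76, -1.85 and -2.50 (SE 0.55 each) for the combination, tamoxifen and estradiol, which makes control 3.39, 3.62 and 5.67 times as high.

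**Figure D1:**
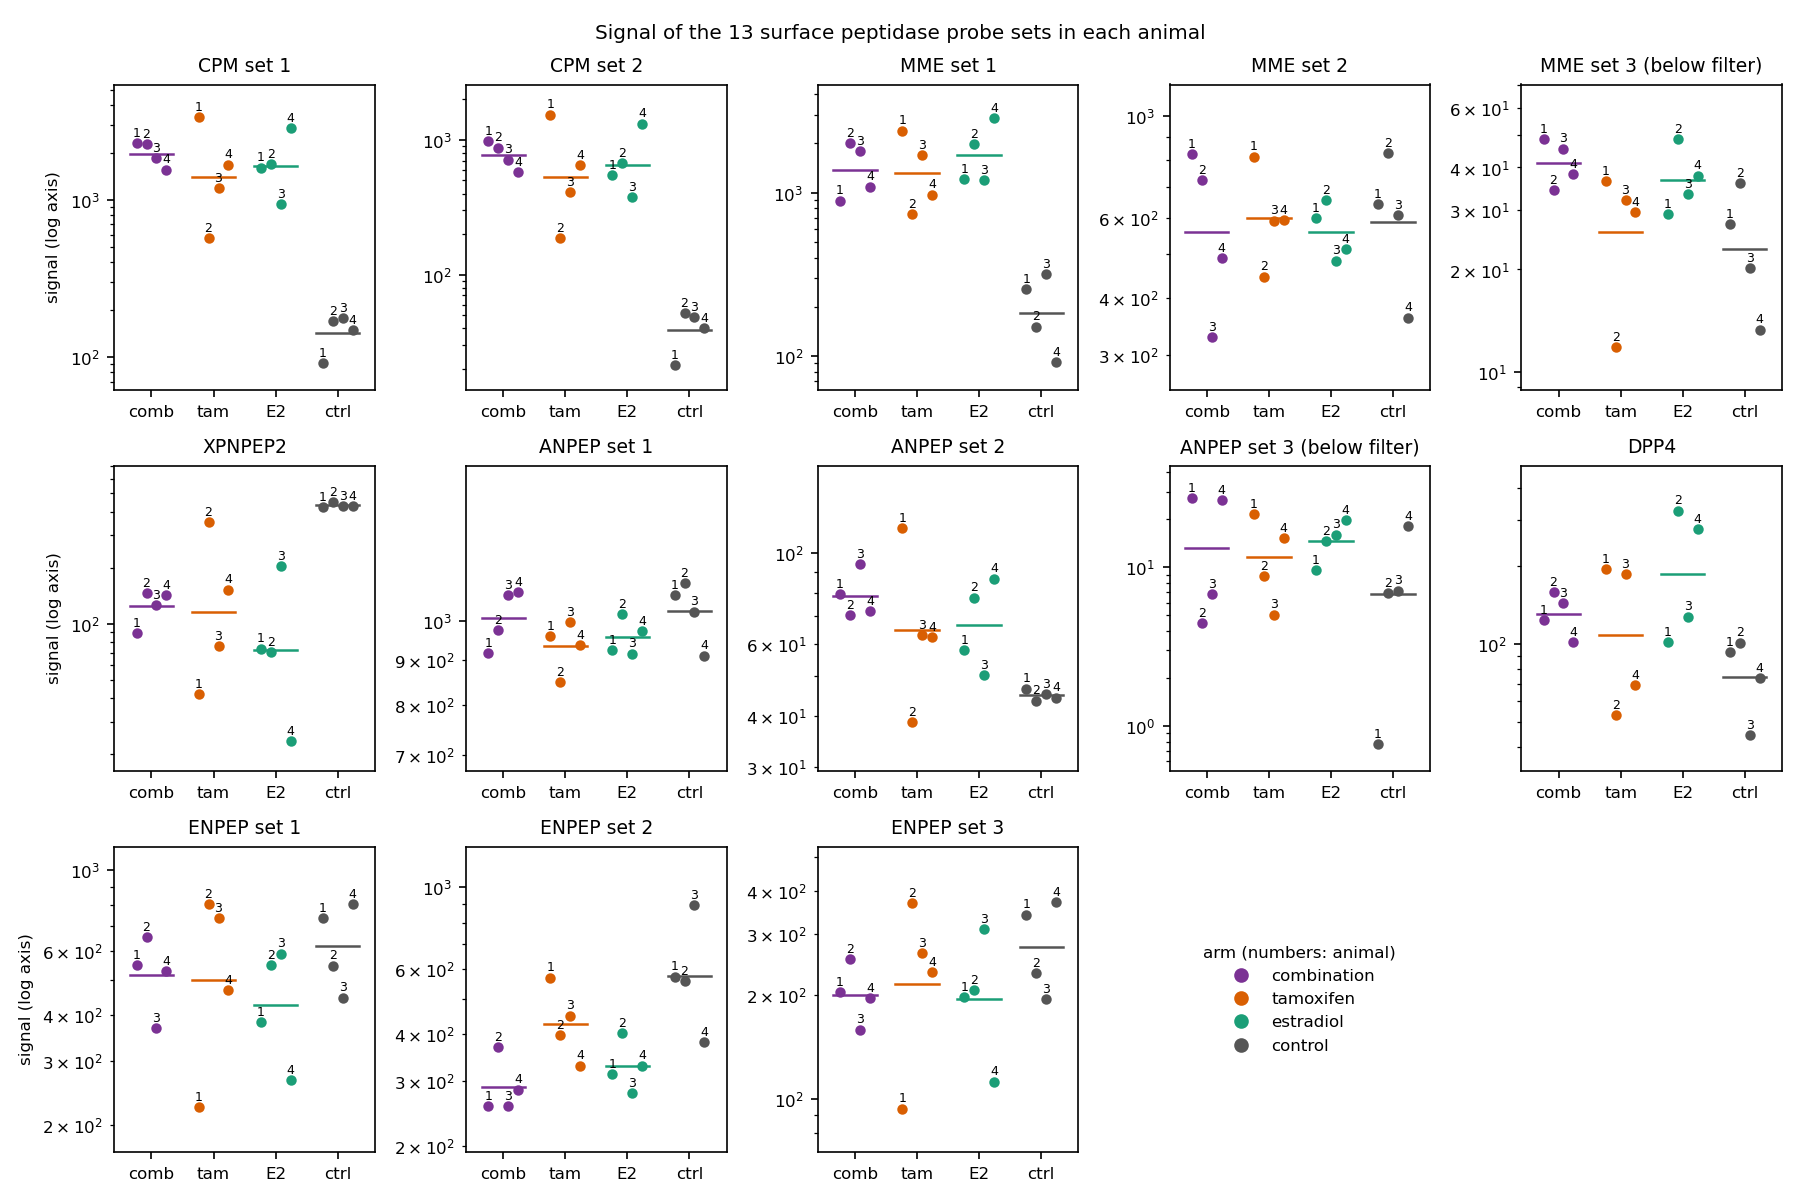
Signal (log axis, own range per panel) of the 13 surface peptidase probe sets, 1 point per animal with its number, and a line at the antilog of each arm's mean log2 value; arms from left to right are combination (comb), tamoxifen (tam), estradiol (E2) and control (ctrl). CPM sets 1 and 2 and MME set 1 have all 12 treated points above the controls, XPNPEP2 has all 12 below, and the other panels overlap in at least 1 arm.

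The levels of the 3 genes varied together over animals in part. Within arms the brighter CPM set correlated with the first MME set at r = 0.52 and with XPNPEP2 at r = -0.84. The first MME set correlated with XPNPEP2 at r = -0.61. Combination animal 1 had the highest CPM signal of its arm (2302) but the lowest MME signal (894). Tamoxifen animal 2, which had the lowest epithelium score of the treated animals (-0.46), had the lowest treated CPM (571) and MME (741) signals and the highest treated XPNPEP2 signal (349). Tamoxifen animal 1 and estradiol animal 4, with the highest epithelium scores (0.96 and 0.94), had the 2 highest CPM and MME signals and the 2 lowest XPNPEP2 signals. Over the 16 arrays, deviations from the arm means correlated with the deviations of the epithelium score at r = 0.81 for each CPM set, 0.79 for the first MME set, 0.26 for the second MME set and -0.89 for XPNPEP2. With the stromal score the first MME set correlated within arms at r = -0.54 and the second at r = 0.19. With the distances between arms included, r with the stromal score was 0.64 for the first MME set and 0.03 for the second. XPNPEP2 correlated positively within arms with the scores of pericyte (r = 0.90), smooth muscle (0.75), macrophage and monocyte (0.73) and endothelium markers (0.64). This was not particular to XPNPEP2. In the same order, r was 0.57, 0.58, 0.53 and 0.66 for the first ENPEP set and 0.67, 0.66, 0.55 and 0.69 for the third. For the brighter CPM set it was -0.71, -0.59, -0.63 and -0.70. These correlations are descriptions over arrays that share 1 scaling and a composition of the tissue. They include tamoxifen animal 1 and estradiol animal 4, which had the highest epithelium and lowest smooth muscle scores, and were not computed without them. The part of RNA integrity in the treated-to-control differences was not tested. With the epithelium score as a covariate, chosen after seeing the data, the log2 differences from control under the combination, tamoxifen and estradiol were 2.31, 1.92 and 2.00 for the brighter CPM set, 1.45, 1.49 and 1.70 for the first MME set, and 0.28, 0.042 and -0.39 for XPNPEP2. No control score lay within the range of the treated scores, so that fit extends the slopes within arms. Without tamoxifen animal 1 and estradiol animal 4, the log2 differences from control under the combination, tamoxifen and estradiol were 3.74, 2.83 and 3.22 for the brighter CPM set, 2.86, 2.51 and 2.92 for the first MME set, and -1.76, -1.40 and -2.02 for XPNPEP2.

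**Figure D2:**
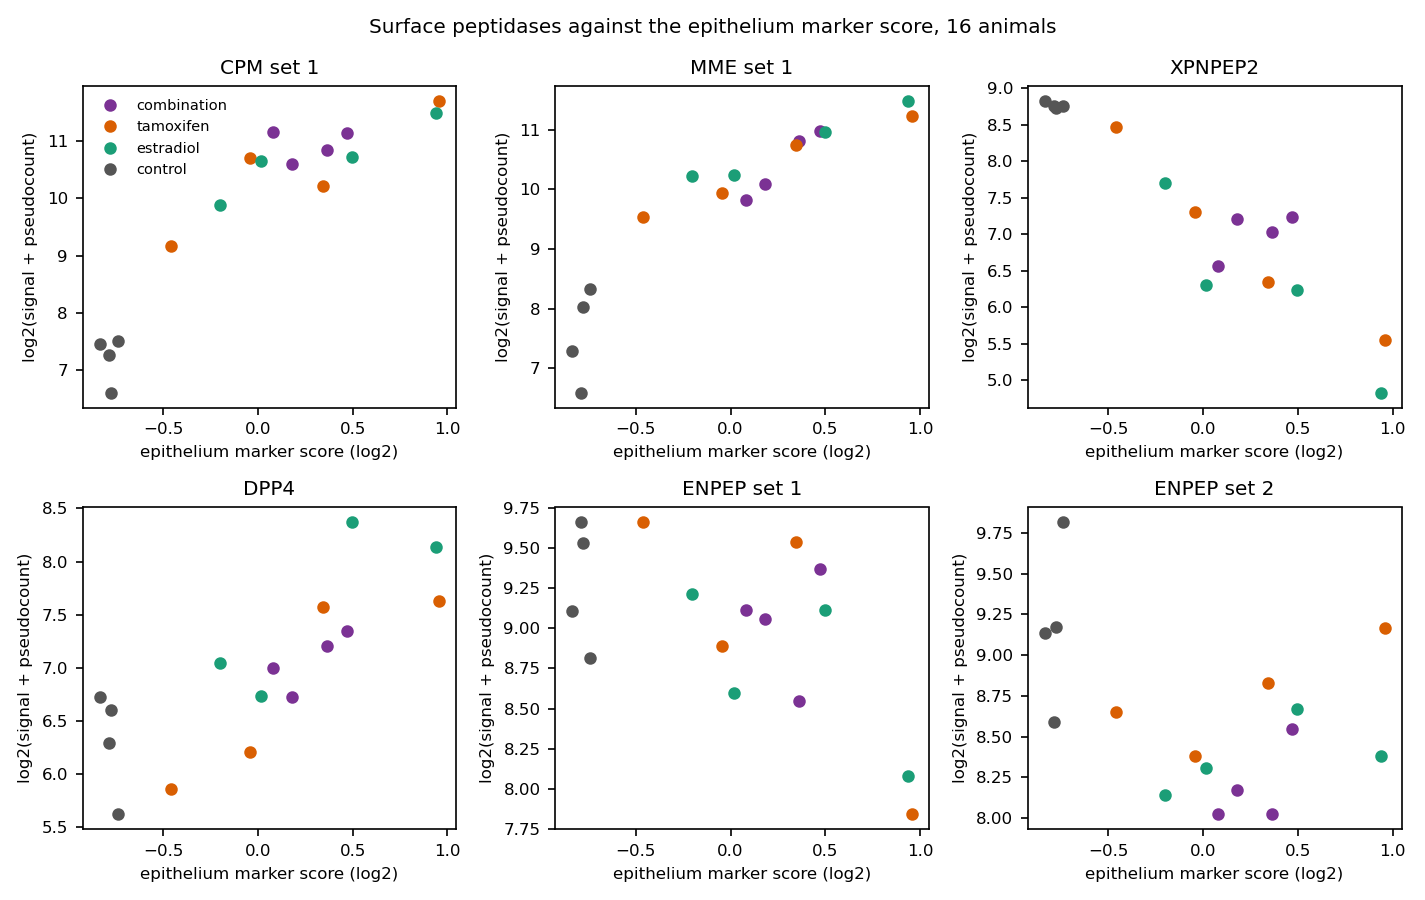
Level of 6 surface peptidase probe sets, as log2(signal + pseudocount), against the epithelium marker score of the same array (mean log2 level of 12 marker genes relative to all arrays), 1 point per animal, coloured by arm. CPM and the first MME set climb with the score, XPNPEP2 descends with it, and the 4 control arrays sit apart at scores of -0.84 to -0.74.

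Under the combination, CPM, MME and XPNPEP2 differed from control by about as much as under 1 agent alone, and by less than the sum of both. The interaction, which is the combination's difference from control minus the sum of the differences under tamoxifen and estradiol alone, was -2.99 (SE 0.60) for the brighter CPM set and -3.39 (SE 0.71) for the dimmer one. It was -3.11 (SE 0.61) for the first MME set, -0.03 (SE 0.40) for the second and 2.60 (SE 0.78) for XPNPEP2. In each case but the second MME set the interaction had about the size of 1 single-agent difference with the sign turned. These values use the contrasts by which the genes were chosen and are given with no test; without tamoxifen animal 1 and estradiol animal 4 they were -2.31 for the brighter CPM set, -2.57 for the first MME set and 1.66 for XPNPEP2. With the epithelium score as a covariate they were -1.61 for the brighter CPM set, -1.74 for the first MME set and 0.63 for XPNPEP2. Over all 31659 tested probe sets, limma called an interaction in 9.54%, and it called none of the 6 tested sets of ANPEP, DPP4 and ENPEP.

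**Figure D3:**
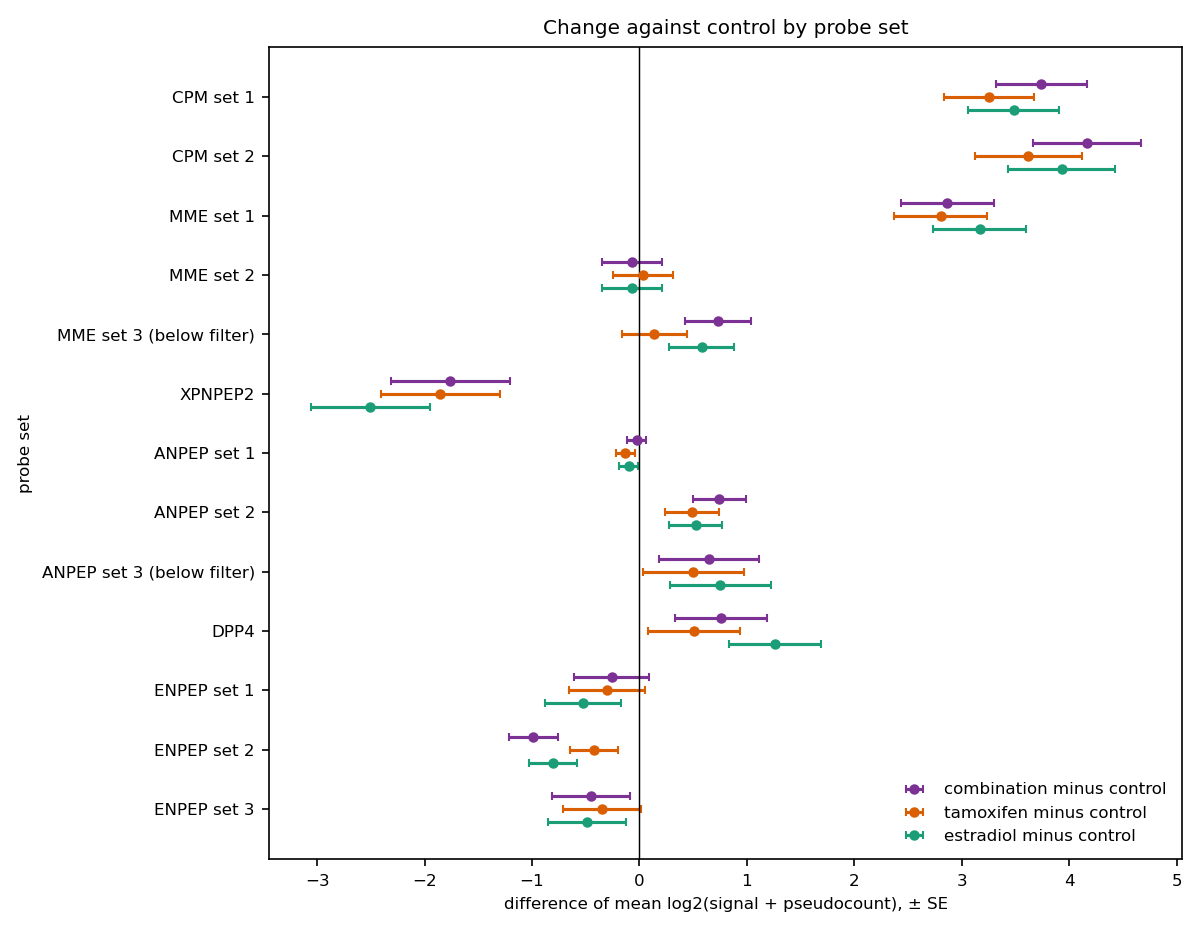
Difference of the mean log2(signal + pseudocount) of each treated arm from the 4 shared control animals, with its SE from the linear model, for the 13 probe sets. CPM and MME set 1 lie between 2.80 and 4.16, XPNPEP2 between -2.50 and -1.76, and the other sets between -0.99 and 1.26.

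Differences among the treated arms were not the contrasts by which CPM, MME and XPNPEP2 were chosen. The same treated arrays entered that choice, however, so the tests of these 3 genes are not independent of it. All 11 tested sets were tested here. In limma, none passed the adjusted threshold of 0.05 between the combination and estradiol, where 1.22% of all sets passed, between the combination and tamoxifen, where 0% passed, or between tamoxifen and estradiol, where 0.569% passed. The lowest adjusted p among the members was 0.557, 1.00 and 0.491 in those comparisons. Between the combination and tamoxifen, 1283 of all 31659 sets had an unadjusted limma p under 0.05, which is a share below 0.05. No member separated 2 treated arms without overlap, against 9.89% of all sets for the combination and estradiol, 3.12% for the combination and tamoxifen and 6.87% for tamoxifen and estradiol. The intervals of the differences were wide. For the brighter CPM set the combination minus estradiol was 0.26 on the log2 scale (95% interval -0.64 to 1.15), the combination minus tamoxifen 0.49 (-0.41 to 1.38) and tamoxifen minus estradiol -0.23 (-1.13 to 0.66).

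For the first MME set these differences were -0.30 (-1.22 to 0.61), 0.06 (-0.86 to 0.98) and -0.36 (-1.28 to 0.55) in the same order. For XPNPEP2 they were 0.75 (-0.43 to 1.92), 0.09 (-1.08 to 1.27) and 0.65 (-0.53 to 1.83). A difference of 1 log2 unit between treated arms therefore lay inside at least 1 interval for each of these genes. The lone interval without 0 belonged to the second ENPEP set for the combination minus tamoxifen, at -0.57 (-1.04 to -0.09; limma adjusted p = 1.00).

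**Figure D4:**
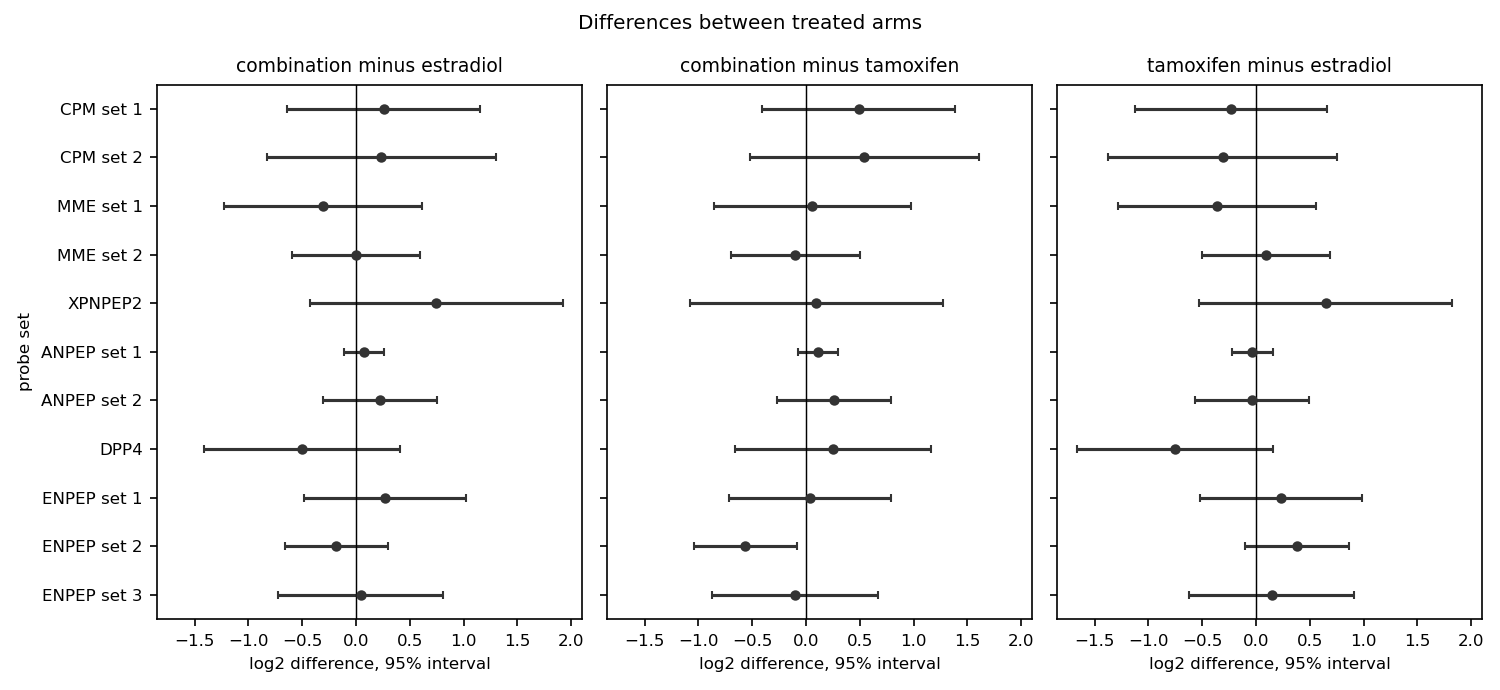
Differences between treated arms on the log2 scale with 95% intervals from the linear model, for the 11 tested probe sets, 1 panel per comparison. Every interval includes 0 except that of ENPEP set 2 for the combination minus tamoxifen, and the narrowest belong to ANPEP set 1.

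Among the relatives, 6 probe sets were tested against control in limma over all 31659 sets. Under the combination 0 rose and 1 fell, where 8.05% of all sets rose and 7.79% fell. Under tamoxifen 0 rose and 0 fell, where 7.14% rose and 6.17% fell, and the lowest unadjusted p was 0.0687. Under estradiol 1 rose and 1 fell, where 13.2% rose and 12.3% fell. Counted by arms that do not overlap, all 11 tested sets together gave 5 higher and 2 lower under the combination (11.7% and 11.8% of all sets), 3 higher and 1 lower under tamoxifen (9.02% and 9.73%), and 5 higher and 1 lower under estradiol (12.4% and 11.9%); CPM, the first MME set and XPNPEP2 make up 4 of these in each arm and were chosen for it.

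DPP4, also called CD26, removes N-terminal dipeptides from chemokines and incretins, and rose under estradiol. Its probe set (MmugDNA.5046.1.S1_at) gave 123, 158, 143 and 101.2 in the combination arm, 194, 53.2, 186 and 69.4 in the tamoxifen arm, 101.6, 326, 127 and 277 in the estradiol arm, and 92.6, 101.0, 44.4 and 73.5 in the control arm. The lowest combination and estradiol arrays stood just above the highest control, and the tamoxifen arm overlapped the controls. The log2 difference was 0.76 for the combination (SE 0.43, limma adjusted p = 0.249), 0.51 for tamoxifen (adjusted p = 0.466) and 1.26 for estradiol, or 2.40-fold (adjusted p = 0.0421). The estradiol call was lost when any 1 of 8 arrays was left out: control animals 1, 3 and 4, estradiol animals 2 and 4, and combination animals 1, 2 and 3, with adjusted p between 0.0506 and 0.133 and a log2 difference of 0.99 to 1.36. The signal was highest in estradiol animals 2 and 4, whose epithelium scores of 0.50 and 0.94 were also the highest of that arm, and DPP4 correlated within arms with the epithelium score at r = 0.79 and with the T and NK cell score at r = 0.06. With the epithelium score as a covariate the differences under the combination, tamoxifen and estradiol were -0.64, -0.79 and -0.19 (limma adjusted p = 0.365, 0.248 and 0.824).

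ENPEP, aminopeptidase A, removes N-terminal acidic residues and turns angiotensin II into angiotensin III. Its second probe set (MmugDNA.24729.1.S1_at) fell under the combination and under estradiol. It gave 255, 369, 256 and 284 in the combination arm, 569.8, 398, 449 and 329 in the tamoxifen arm, 313, 403, 277 and 329 in the estradiol arm, and 573, 558, 896 and 381 in the control arm. The combination arrays all lay below the controls, whereas estradiol animal 2 and 3 of the 4 tamoxifen arrays exceeded the lowest control. The log2 signal fell by 0.99 under the combination (SE 0.23, limma adjusted p = 0.00929) and by 0.80 under estradiol (adjusted p = 0.0171), and the difference under tamoxifen was -0.42 (adjusted p = 0.232). Without control animal 3, the highest of the controls, the estradiol difference was -0.59 (adjusted p = 0.0526) and the combination difference -0.78 (adjusted p = 0.0308).

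The other 2 ENPEP sets did not show this. The first (MmuSTS.4322.1.S1_at) read 369 to 656 under the combination, 224 to 806 under tamoxifen, 266 to 589.8 under estradiol and 447 to 806 in controls, and the third (MmugDNA.38529.1.S1_at) 159 to 254, 94.0 to 368, 112 to 310.2 and 194 to 372 in the same order. Their log2 differences from control lay between -0.53 and -0.26, with limma adjusted p between 0.297 and 0.664, and with the epithelium score as a covariate between 0.46 and 0.73, none past the threshold. These 2 sets followed each other within arms (r = 0.96 over 16 arrays), and neither followed the second set (r = -0.35 and -0.47). They also ran against the epithelium score (r = -0.65 and -0.78), while the second set did not (r = 0.48). ENPEP therefore has a lower level in 2 treated arms on 1 of its 3 probe sets.

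ANPEP, aminopeptidase N or CD13, removes neutral N-terminal residues, and its bright set was the steadiest of all members. This set (MmuSTS.760.1.S1_at) gave 917, 976, 1069 and 1079.7 in the combination arm, 960.0, 848, 997 and 938 in the tamoxifen arm, 925, 1017, 916 and 972 in the estradiol arm, and 1069.9, 1104, 1024 and 911 in the control arm. Its log2 differences from control were -0.02, -0.13 and -0.10 (SE 0.09 each, limma adjusted p = 0.888, 0.344 and 0.451) for the combination, tamoxifen and estradiol. The widest of their 95% intervals reached -0.32, so that a fall of 1 log2 unit was outside all of them.

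A second, dim ANPEP set (MmuSTS.2823.1.S1_at) gave 79.4, 70.6, 93.9 and 72.0 in the combination arm, 115, 38.6, 62.9 and 62.3 in the tamoxifen arm, 57.8, 77.8, 50.3 and 86.6 in the estradiol arm, and 46.6, 43.6, 45.2 and 44.3 in the control arm. All treated arrays but tamoxifen animal 2 stood above the controls. The log2 differences were 0.74, 0.49 and 0.52 (SE 0.25 each), none past the threshold in limma (adjusted p = 0.0542, 0.210 and 0.138). The combination difference passed under 7 of 26 alternatives, with adjusted p between 0.0139 and 0.831 over all of them, and with the epithelium score as a covariate the differences were -0.10, -0.30 and -0.35. It was the member that followed the epithelium score most closely within arms (r = 0.90), and it followed the brighter ANPEP set less so (r = 0.45). The third set was below the brightness filter, with signals of 0.775 to 27.1.

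By a fixed rule, the genes whose pattern over the 16 arrays was most like each of the 3 chosen members were ranked among 10704 other genes by Pearson's r of log2 values. For CPM these were AGR2 (r = 0.98), SERINC5 and FRAS1 (0.97 each), KCNF1 (0.97) and CRIP1 (0.96), and MME ranked 88 (r = 0.92). For the first MME set they were AIM2, GDF11, DYNC1I2 and METTL1 (0.96 each) and LOC697670 (0.95), with CPM at rank 48. For XPNPEP2 they were FIBIN, LRRK2, NUPR1, NNMT and PIM1 (0.96 each). These values include the distance between treated and control arrays. For deviations from the arm means, the nearest were SSH2 (0.92), SCD5 (0.90), SERINC5, GPRC5C and MVD (0.89 each) for CPM, SRPK2, SYK, EVA1A, CHD7 and SLC45A2 (0.90 to 0.92) for MME, and RERG (0.95), GDPD4, FIBIN and TRPC4 (0.94 each) and ENG (0.93) for XPNPEP2. SERINC5 and FIBIN stood on both lists of their gene.

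Of 79 other peptidases listed, 61 were annotated and 49 tested, each by its brightest set. Under the combination 9 rose and 2 fell, under tamoxifen 7 rose and 4 fell, and under estradiol 11 rose and 7 fell. Over all 10705 genes so followed, 10.6% rose and 9.09% fell under the combination, 8.59% and 7.64% under tamoxifen, and 16.5% and 13.2% under estradiol. The median log2 difference of the 49 was 0.04, -0.01 and 0.07, against -0.01, -0.02 and 0.01 for all genes. In limma, none of the 49 passed between treated arms. Leaving out 1 array moved these counts to between 7 and 13 under the combination, 6 and 11 under tamoxifen and 12 and 22 under estradiol, so that no excess over the background is read from them.

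Of the 18 tested peptidases in the list of other surface or peptide-degrading enzymes, 6 rose and 2 fell under the combination, 4 rose and 3 fell under tamoxifen, and 4 rose and 3 fell under estradiol. Over all genes, 10.6% rose and 9.09% fell under the combination, 8.59% and 7.64% under tamoxifen, and 16.5% and 13.2% under estradiol. PRSS8, prostasin, a channel-activating protease, had signals of 607 to 698 in the combination arm, 287 to 947 in the tamoxifen arm, 257 to 762 in the estradiol arm and 168 to 210.2 in the control arm. It rose by 1.77, 1.40 and 1.29 on the log2 scale (SE 0.32 each, limma adjusted p = 0.00259, 0.0118 and 0.00932). With the epithelium score as a covariate, 3, 2 and 1 of the 49 peptidases passed under the combination, tamoxifen and estradiol, and the estradiol difference of PRSS8 was -0.011. TMPRSS2, a transmembrane serine protease, rose by 1.67 under the combination (adjusted p = 0.00910) and 1.79 under tamoxifen (adjusted p = 0.00748), and HPN, hepsin, by 1.60 (adjusted p = 0.00663) and 1.43 (adjusted p = 0.0138). TMPRSS4 rose by 1.96 under estradiol (adjusted p = 0.000506). Its signals were also above the controls (19.3 to 34.3) under the combination (48.3 to 102.9) and tamoxifen (36.9 to 103.8). Under estradiol TMPRSS2 gave 284 to 585, against 145 to 260 in controls, and HPN 200 to 703, against 158 to 216. Among the falls, GGT7, a gamma-glutamyltransferase family member, fell by 0.47, 0.46 and 0.49 in the 3 treated arms (SE 0.11 each, adjusted p = 0.0115, 0.0143 and 0.00533), and the thimet-type peptidase NLN, neurolysin, fell by 0.39, 0.46 and 0.52 (SE 0.10 each, adjusted p = 0.0205, 0.0104 and 0.00223). The NLN call under the combination was lost without combination animal 4 (-0.35, adjusted p = 0.0573) or control animal 2 (-0.30).

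Of 8 tested metallocarboxypeptidases, a list that is not limited to the family of CPM, 2 rose under the combination, 3 rose under tamoxifen, and 2 rose and 2 fell under estradiol. For this and the following small lists, the shares over all genes were 10.6% higher and 9.09% lower under the combination, 8.59% and 7.64% under tamoxifen, and 16.5% and 13.2% under estradiol. CPXM1, whose product lacks known carboxypeptidase activity, rose by 2.06 under estradiol (SE 0.40, limma adjusted p = 0.00207). CPQ, a plasma carboxypeptidase, rose by 0.55 under tamoxifen (adjusted p = 0.0154) and 0.60 under estradiol (adjusted p = 0.00478), and its other 4 tested sets lay between 0.17 and 0.98 in those comparisons. Of the 4 tested relatives of neprilysin, ECE2, an endothelin-converting enzyme, rose by 1.61 under estradiol (adjusted p = 0.00496), but its other tested set differed by 0.03. Of 15 tested aminopeptidases 1 rose under the combination, 1 fell under tamoxifen, and 3 rose and 2 fell under estradiol, the methionine aminopeptidase METAP1 (0.54, adjusted p = 0.0124) and the bleomycin hydrolase BLMH (0.35, adjusted p = 0.0118) among the risers. Of the 4 tested prolyl and dipeptidyl peptidases 1 rose, PRCP under estradiol (0.46, adjusted p = 0.0472), with 0.10 on its other set. The dipeptidase CNDP2 rose by 0.52 under estradiol (adjusted p = 0.00727).

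Other calls in these lists, apart from that of CPN1 under tamoxifen, were less stable when 1 array was left out. CPXM1 rose by 1.36 under the combination (limma adjusted p = 0.0332, past the threshold in 11 of 16 such fits) and 1.37 under tamoxifen (adjusted p = 0.0360, 10 of 16). CPN1, the catalytic subunit of carboxypeptidase N, rose by 0.94 under the combination (adjusted p = 0.0378, 4 of the 6 fits that kept it above the filter) and 1.24 under tamoxifen (adjusted p = 0.0120, 6 of 6). Under estradiol CPA3, the carboxypeptidase of mast cells, fell by 2.00 (adjusted p = 0.0314, 12 of 16) and AEBP1 by 0.69 (adjusted p = 0.0260, 12 of 16). The prolidase PEPD rose by 0.45 under the combination (adjusted p = 0.0350, 9 of 16) and 0.45 under estradiol (adjusted p = 0.0224, 12 of 16). RNPEP, aminopeptidase B, fell by 0.58 under tamoxifen (adjusted p = 0.0287, 12 of 16). Under estradiol LTA4H fell by 0.34 (adjusted p = 0.0247, 12 of 16) and ERAP1, which trims peptides for antigen presentation, by 0.59 (adjusted p = 0.0220, 12 of 16), while the other ERAP1 set differed by 0.43. PGPEP1 fell by 0.66 under tamoxifen (adjusted p = 0.0336, 10 of 16) and by 0.64 under estradiol (adjusted p = 0.0242, 13 of 16), and its other 2 sets lay between -0.47 and -0.14 in these comparisons. The PRCP call held in 6 of 16.

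**Figure D5:**
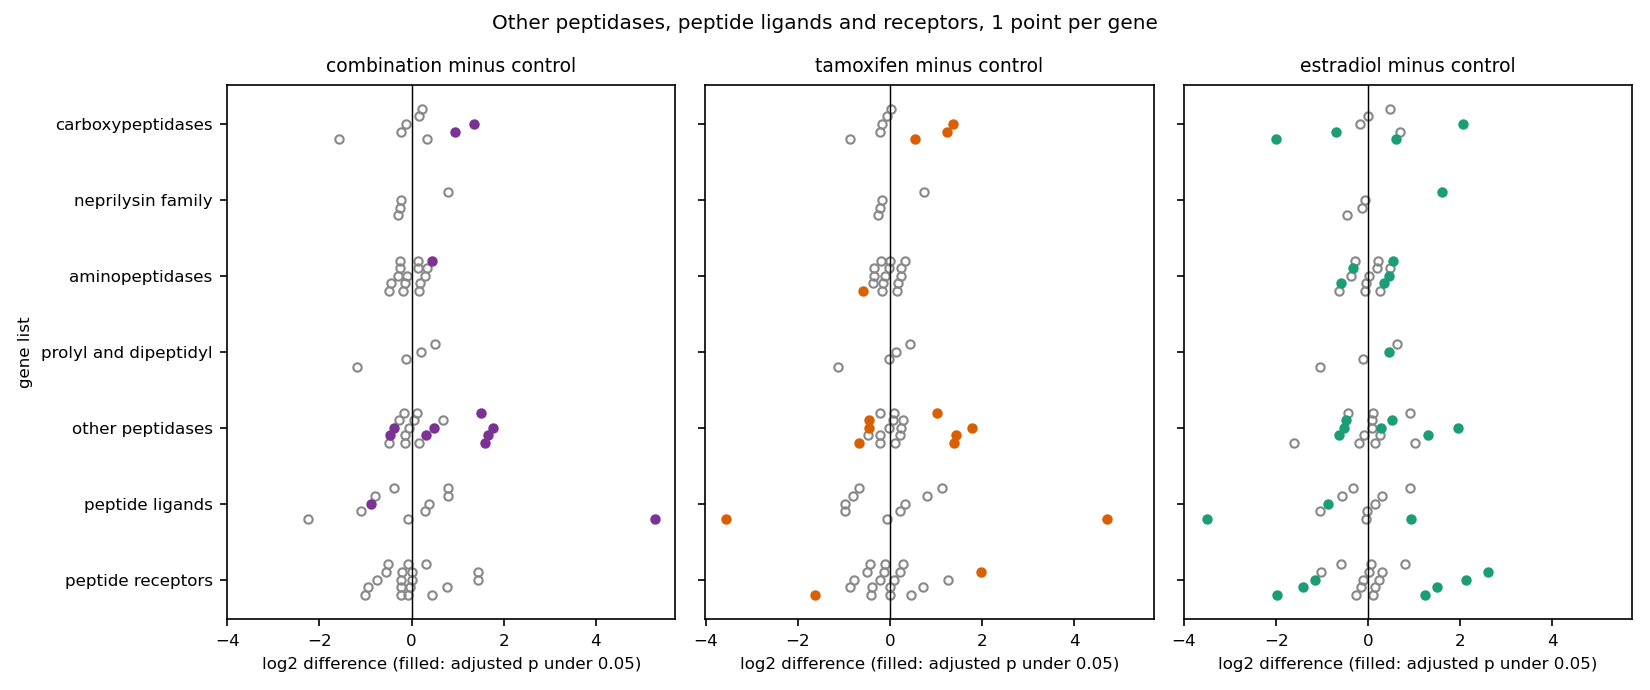
Difference from control on the log2 scale for genes of 5 lists of other peptidases and of the peptide ligands and receptors, 1 point per gene by its brightest tested set, filled where the limma adjusted p was under 0.05, 1 panel per treated arm. Most points lie within 1 log2 unit of 0, and the points farthest out are NPY, at 5.28 under the combination and 4.71 under tamoxifen, and CCL11, at -3.56 under tamoxifen and -3.50 under estradiol.

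Substrates and receptors of these enzymes were followed in the same way. Of 11 tested peptide ligands, 1 rose and 1 fell under the combination, 1 rose and 1 fell under tamoxifen, and 1 rose and 2 fell under estradiol. The shares over all genes were 10.6% and 9.09%, 8.59% and 7.64%, and 16.5% and 13.2% in that order, and no excess is read from these counts. NPY, neuropeptide Y, whose N-terminal pair DPP4 can remove, had signals of 574 to 2338 in the combination arm, 532 to 2846 in the tamoxifen arm, 18.9 to 130.4 in the estradiol arm and 2.30 to 64.6 in the control arm. It rose by 5.28 under the combination and 4.71 under tamoxifen (SE 0.76 each, limma adjusted p = 0.000614 and 0.00172). The combination exceeded estradiol by 4.38 (adjusted p = 0.0178) and tamoxifen exceeded estradiol by 3.81 (adjusted p = 0.0364); leaving out estradiol animal 1 ended both calls (adjusted p = 0.0686 and 0.141), and the first passed in 13 and the second in 7 of 16 such fits. EDN1, endothelin 1, a substrate of neprilysin, fell by 0.88 under the combination (adjusted p = 0.0150) and by 0.88 under estradiol (adjusted p = 0.00944). CCL11, eotaxin, a chemokine that DPP4 can cut, fell under tamoxifen (log2 difference -3.56, limma adjusted p = 0.0393) and under estradiol (-3.50, adjusted p = 0.0261), calls that held in 8 and 10 of 16 fits without 1 array. It was not called under the combination, but its signals there, 74.5 to 789, also lay below those of the controls, 811 to 1360. CXCL12, another chemokine that DPP4 can cut, rose by 0.92 under estradiol (adjusted p = 0.0252, 11 of 16), with 0.27 and 1.57 on its other sets.

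Of 19 tested peptide receptors, 0 rose and 0 fell under the combination, 1 rose and 1 fell under tamoxifen, and 4 rose and 3 fell under estradiol. Among all genes 10.6% and 9.09%, 8.59% and 7.64%, and 16.5% and 13.2% did so in that order, and no excess is read from these counts. BDKRB1, the receptor for kinins that have lost their C-terminal arginine, the product of carboxypeptidases such as CPM, rose by 1.98 under tamoxifen (SE 0.48, limma adjusted p = 0.0146). AGTR2, an angiotensin II receptor, rose by 2.60 under estradiol (SE 0.56, adjusted p = 0.00371), with 3.27 and 3.28 on its other sets. OXTR, the oxytocin receptor, fell by 1.98 under estradiol (adjusted p = 0.00677) and NPR1, a natriuretic peptide receptor, by 1.16 (adjusted p = 0.0102). The remaining calls of BDKRB1, AGTR1 and OXTR held in 10 or 11 of 16 fits without 1 array. The 2 calls of SSTR1 held in 11 and 9 of the 13 such fits that kept it above the brightness filter, and its signals under the combination were 1.80 to 31.1. BDKRB1 rose by 1.49 under estradiol (limma adjusted p = 0.0330), AGTR1 fell by 1.42 under estradiol (adjusted p = 0.0339), with -0.49 on its other set, and OXTR fell by 1.63 under tamoxifen (adjusted p = 0.0328). Under the combination, where no receptor was called, OXTR gave 39.2 to 64.5, against 68.5 to 127.5 in controls, and BDKRB1 145 to 595, against 65.0 to 167. AGTR2 gave 622 to 1577 under the combination and 261 to 1349 under tamoxifen, against 209 to 650 in controls. NPR1 gave 233 to 273 under the combination and 124 to 284 under tamoxifen, all below its controls at 293 to 487. SSTR1, a somatostatin receptor, rose by 2.12 under estradiol (adjusted p = 0.0277), and was lower under the combination than under estradiol (log2 difference -3.12, adjusted p = 0.0358). Of the 53 gene calls that the naming rule gave in these lists, 29 passed in every fit that left out 1 array and kept the gene above the filter.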

How the data were processed

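Per the labels' protocols, total RNA of frozen endometrium was purified, checked on a Bioanalyzer, labelled with an Enzo kit and hybridised to 1-colour Affymetrix arrays. The authors deposited 1 linear intensity for each probe set of each array, never below 0. Tools listed in the submitters' processing notes are MAS5, GCOS and Affymetrix Expression Console. Versions and the scaling target are not given in the sources used here. The trimmed mean signal (2% left out at each end) was 250.0 on every array, so the values were not normalized again, and every change is relative to the array's total. The precision is limited by the number of arrays, 4 per arm.

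Signals were taken to log2(signal + 4.80), the pseudocount being the 10th percentile of all values, which understates changes of dim sets. The 99 control sets were left out, and then the 40% with the lowest mean over all arrays, so that 31659 were tested, the dimmest at a mean log2 value of 5.36. limma 3.58.1 in R 4.3.3 fitted a mean per arm over all 16 arrays, with 12 residual degrees of freedom, eBayes with a variance trend and Benjamini-Hochberg adjustment over all tested sets, at a threshold of 0.05. The fit was tested on simulated data. Symbols came from the platform's annotation, which gives 1 symbol to 24969 sets, several to 361 and none to 27535. Probe sequences and genome positions were not used here.

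The members and the gene lists were chosen with earlier results of these data known. Every probe set of the members was described. From each list, up to 3 genes with the highest and up to 3 with the lowest change among those past the threshold against control were named, each by its brightest tested set, and all past the threshold between treated arms where these were few. An arm for which no change of a named gene is given was not called or not named, and may still differ from control. The 5 genes most like CPM, MME and XPNPEP2 were ranked by Pearson's r. Alternatives were the pseudocount, the brightness filter, quantile normalization, the variance model, the arrays in the fit, the replicate number as a block, and leaving out arrays. The epithelium score as a covariate was chosen after seeing the data. The labels do not say that replicate numbers pair animals.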

Additional observations from a re-analysis of the deposited data

How the results depend on the processing

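For both CPM sets, the first MME set and XPNPEP2, all alternatives kept the direction of every difference from control, except that the epithelium score as a covariate turned XPNPEP2 under the combination and tamoxifen. XPNPEP2 was then at 0.28 and 0.042. Among calls against control it also turned the estradiol difference of DPP4 (-0.19), PRSS8 (-0.011), AEBP1 (0.12), CCL11 (0.19) and AGTR1 (0.37). Among differences not called, it turned those of the second ANPEP set (-0.10, -0.30 and -0.35) and of the first (0.69, 0.59 and 0.46) and last ENPEP sets (0.71, 0.73 and 0.71) under the combination, tamoxifen and estradiol, of DPP4 under the combination (-0.64) and tamoxifen (-0.79), and of the second MME set under tamoxifen (-0.25). Of the ANPEP, DPP4 and ENPEP sets, 2 instead of 1 passed under the combination with quantile normalization, no variance trend, only the arms compared, or without the 2 arrays low in smooth muscle, and 1 to 2 without a single array. Under estradiol 1 instead of 2 passed with no filter, only the arms compared, the replicate block, the covariate, or without those 2 arrays, and 0 to 2 without a single array, 0 without control animal 3. Their counts of 0 under tamoxifen and for the interaction, and the count of 0 for all tested members between treated arms, held under all alternatives. Of the other peptidases, 7 to 13 passed under the combination, 6 to 11 under tamoxifen and 12 to 22 under estradiol without a single array, against 3, 2 and 1 with the covariate. Between the combination and estradiol 1 passed with a pseudocount of 32 and 4 with the covariate, and 0 to 1 without a single array. Between tamoxifen and estradiol 2 passed with the covariate and 0 to 1 without a single array. Over all sets, calls between the combination and estradiol numbered 385 and ranged between 47 without estradiol animal 1 and 1320 with the covariate, those between tamoxifen and estradiol 180 and between 0 with only the arms compared and 618 without estradiol animal 3, and with the covariate 2855, 2072 and 3060 sets were called against control under the combination, tamoxifen and estradiol, in place of 5015, 4214 and 8062, and 1117 for the interaction in place of 3019. With only the arms compared, 2663 passed under tamoxifen. The cause was not tested. Same-numbered animals did not deviate together, with 0 of 4 pairs over r = 0.1 in each comparison; with the replicate block the adjusted p of DPP4 under estradiol was 0.0729.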
